A study of Mus musculus with 15 samples.

Results

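Heparan sulfate proteoglycans and their enzymes were followed through 15 RNA-seq libraries of mouse embryonic stem cells (mESCs) in which the cohesin subunits STAG1 and STAG2 had been removed or depleted. The set holds 10 genes out of the 23412 in the count tables, taken by their symbols. These are the syndecans Sdc1, Sdc2, Sdc3 and Sdc4, the glypicans Gpc3 and Gpc4, and the enzymes Hs6st1, Hs6st2, Ext1 and Ndst1. All cells were v6.5 male mESCs kept on gelatinized dishes, and polyadenylated RNA was sequenced from 5 groups with 3 replicates each. Wild-type siGLO cells carried no knockout and received a non-targeting control siRNA at 50 nM for 48 h. Stag1-/- siGLO and Stag2-/- siGLO cells were knockout lines given the same control siRNA. Wild-type siStag1 and Stag2-/- siStag1 cells received an siRNA against Stag1 at the same dose and time, so that the last group lacked one STAG protein and was depleted of the other. Each knockout was 1 CRISPR-Cas9 clone from which the 3 replicates were taken, so the p-values measure only the spread between replicate samples, which may be technical.

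Heparan sulfate is a sulfated sugar chain built on core proteins that sit at the cell surface or in the extracellular matrix. Syndecans are transmembrane core proteins and glypicans are held in the membrane by a lipid anchor. EXT1 elongates the chain, NDST1 begins its modification by exchanging acetyl for sulfate groups, and the HS6ST enzymes add sulfate at the 6-O position. The finished chains bind growth factors such as FGFs and Wnts, and in mESCs they are known for their part in FGF signalling during the exit from the pluripotent state.

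Libraries held 14982560 to 19070126 counts over genes, with a median of 17700059, and all 10 genes passed the filter on low counts that left 14508 genes for testing. Their smallest raw count in any library was 65, in Hs6st2. Values are normalized counts, that is, raw counts scaled by TMM to the depth of the mean library. Stag2 counts were 2324, 2330 and 2324 in wild-type siGLO cells and 662.0, 737.7 and 673.3 in Stag2-/- siGLO cells. Stag1 counts fell from 2283, 2133 and 2008 to 516.4, 455.3 and 352.4 with siStag1 in wild-type cells, and stood at 665.9, 779.6 and 627.7 in Stag2-/- siStag1 cells. In Stag1-/- siGLO cells Stag1 counts were 1822, 2364 and 1871, overlapping wild type, so gene counts do not check that label. As the study describes it, the clone carries a deletion that keeps the reading frame, with normal transcript levels and no protein detected. The Stag2-/- siStag1 libraries held more Stag1 RNA than the wild-type siStag1 libraries, by 0.65 log2 units (SE 0.14, adjusted p = 0.0023). Summed counts of 10 ESC markers ranged from 116489 to 122197 in wild-type siGLO, 95759 to 111101 in Stag1-/- siGLO, 108835 to 115418 in wild-type siStag1, 89996 to 108067 in Stag2-/- siGLO and 66198 to 84999 in Stag2-/- siStag1 cells. Of the 10, 2 fell in Stag1-/- siGLO cells, 5 in Stag2-/- siGLO cells and 8 in Stag2-/- siStag1 cells, called at an adjusted p below 0.1 as described below. Over all tested genes 9.93%, 14.4% and 21.3% fell and 10.1%, 13.9% and 22.6% rose in these groups. In wild-type siStag1 cells 0.248% of all genes were called. The smaller marker counts that follow are near these shares, and nothing is read from them. For most marker lists only 1 direction of calls is given. Summed counts of 8 primitive endoderm markers, an extraembryonic lineage that arises in such cultures, were 8741 to 9574 in wild-type siGLO, 478.9 to 876.2 in Stag1-/- siGLO, 7844 to 8343 in wild-type siStag1, 1252 to 2271 in Stag2-/- siGLO and 1487 to 2179 in Stag2-/- siStag1 cells. All 8 fell in the 3 knockout groups and none was called in wild-type siStag1 cells. Those of 6 primed epiblast markers were 5102 to 6817, 9507 to 12918, 7300 to 9370, 15320 to 19055 and 20354 to 28320 in the same order, with 3 of the 6 rising in Stag1-/- siGLO cells and all 6 rising in both Stag2-/- groups. Summed counts of 6 trophoblast markers were 303.2 to 444.4 in wild-type siGLO and 693.7 to 1001 in Stag1-/- siGLO cells, where 3 of 5 tested rose, and 179.1 to 329.1 and 184.7 to 209.5 in the Stag2-/- groups, where 2 and 1 of 5 fell. Those of 6 neural markers were 1907 to 2704 in wild-type siGLO cells and 2943 to 4536 and 3359 to 5671 in the Stag2-/- groups, where 3 and 2 of 5 tested rose. Those of 7 primitive streak and mesoderm markers were 273.4 to 362.2 in wild-type siGLO and 329.4 to 1380 in Stag2-/- siGLO cells, where 3 of 6 tested rose and 1 fell. The lowest Stag2-/- siGLO library lay within the wild-type siGLO range. Stag2-/- siGLO replicate 2 held T at 267.8, Wnt8a at 360.3 and Fgf8 at 523.7. Replicate 1 held 80.25, 42.24 and 38.01 of these genes and replicate 3 held 35.82, 33.72 and 338.2. In Stag2-/- siStag1 cells the sum of the 7 markers was 272.5 to 392.4, with 3 rising and 2 falling. Of 9 fibroblast markers, Dcn and Lum were at 0 in wild-type siGLO cells and the list summed to between 290.8 and 662.0 in every library. In bulk RNA, fewer cells of a type and less RNA per cell cannot be told apart, and the part of these markers in the results that follow was not tested.

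Levels between genes were compared per kilobase of exon in wild-type siGLO cells, using the union of annotated exons. Sdc4 stood highest with 751 ± 126 normalized counts per kb (SD, n = 3), followed by Gpc3 with 552 ± 43.5 and Gpc4 with 402 ± 29.2. Hs6st1 with 306 ± 19.1 and Sdc1 with 298 ± 7.66 came next, and these neighbours did not differ beyond their spread. Ext1 followed with 143 ± 20.5, Ndst1 with 80.6 ± 4.67 and Sdc2 with 58.8 ± 8.02. Sdc3, at 22.6 ± 1.51 per kb, and Hs6st2, at 9.97 ± 1.76, were the least abundant. Taking the length of the longest transcript in place of all exons raised Hs6st1 to 455.6 per kb, above Gpc4, and Hs6st2 to 17.9 per kb, where it was still below Sdc3 with 27.2.

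Differences between groups were fitted on the raw counts of all 15 libraries with edgeR, and a gene was called at a Benjamini-Hochberg adjusted p below 0.1 over all tested genes. Against wild-type siGLO, 3 of the 10 genes rose and none fell in Stag1-/- siGLO cells, where 20.0% of all genes were called, 10.1% rising and 9.93% falling. The 3 were Sdc3, Hs6st1 and Hs6st2. In Stag2-/- siGLO cells 4 rose, namely Sdc1, Sdc2, Sdc3 and Hs6st2, and Sdc4 fell, against 28.3% of all genes called, 13.9% rising and 14.4% falling. With siStag1 in wild-type cells 1 rose, Hs6st2, where 0.248% of all genes were called, 0.103% rising and 0.145% falling. In Stag2-/- siStag1 cells 5 rose, namely the 4 of the Stag2-/- siGLO cells and Ndst1, while Sdc4 and Gpc4 fell, where 43.9% of all genes were called, 22.6% rising and 21.3% falling. The 4 comparisons share the wild-type siGLO libraries. The median log2 fold change over the 10 genes was 0.05, 0.15, -0.02 and 0.24 in these comparisons, beside -0.01, 0.01, -0.00 and 0.01 over all tested genes. Replicates of the group and of wild-type siGLO did not overlap for 5 of the 10 genes in Stag1-/- siGLO, 5 in Stag2-/- siGLO, 4 in wild-type siStag1 and 7 in Stag2-/- siStag1 cells. The same held for 31.7%, 35.7%, 15.5% and 47.3% of all genes. Without wild-type siGLO replicate 2 the number called in Stag2-/- siGLO cells was 3, and without any 1 of the 6 libraries compared it was 0 in wild-type siStag1 cells. With replicate number as a block, which pairs same-numbered samples, 3, 5 and 1 of the 10 genes were called in the first 3 comparisons, and the number called over all genes rose from 2907 to 4443 in Stag1-/- siGLO, from 4110 to 5723 in Stag2-/- siGLO and from 36 to 236 in wild-type siStag1 cells.

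**Figure D1:**
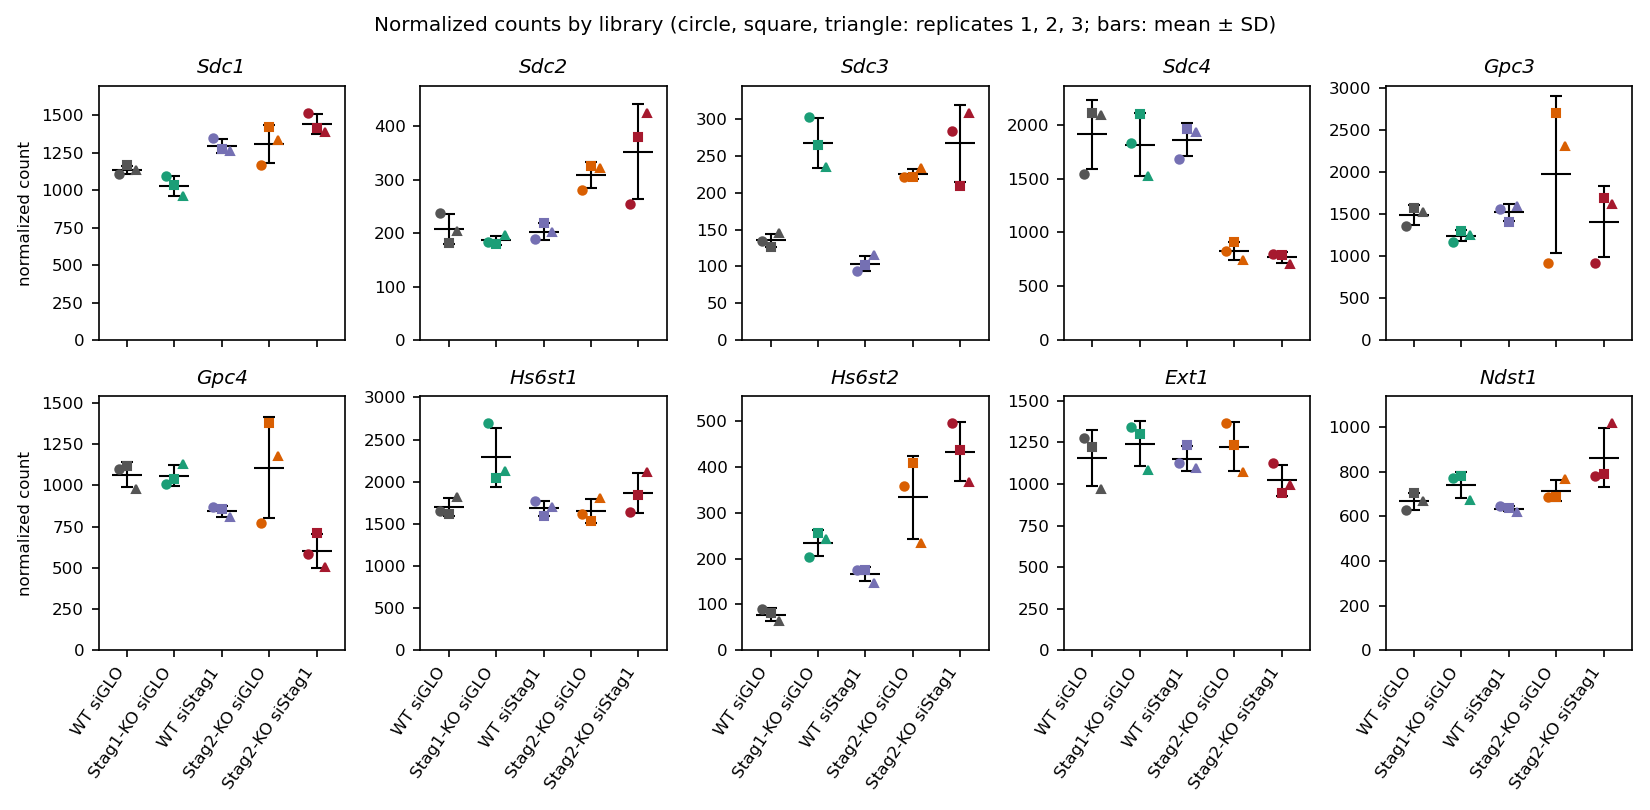
Normalized counts (vertical axes, linear and starting at 0) of the 10 genes in each of the 15 libraries, with circles, squares and triangles for replicates 1, 2 and 3 and bars for the mean ± SD of each group (KO: knockout, WT: wild type). Sdc4 is lower in the 6 Stag2-/- libraries than in the other 9, and Hs6st2 is lowest in the 3 wild-type siGLO libraries.

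**Figure D2:**
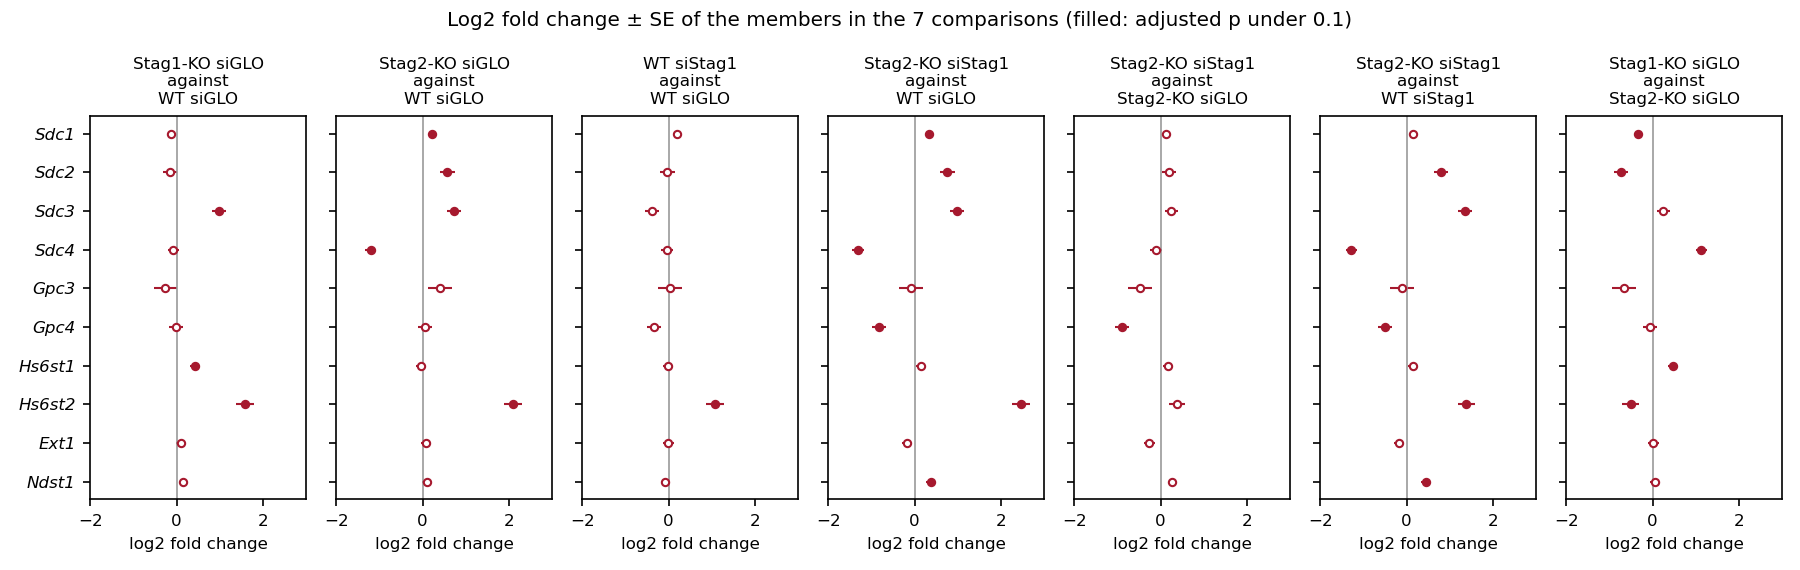
Log2 fold change (horizontal axes) of each of the 10 genes in the 7 comparisons between groups, with bars for the SE and filled points for an adjusted p below 0.1 in edgeR. Hs6st2 lies to the right of 0 in all 4 comparisons with wild-type siGLO, and Sdc4 lies to the left in those of both Stag2-/- groups.

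Sdc4, the syndecan of focal adhesions, gave the clearest split between the lines. Its normalized counts were 1541, 2107 and 2087 in wild-type siGLO, 1829, 2098 and 1521 in Stag1-/- siGLO, 1683, 1963 and 1936 in wild-type siStag1, 824.6, 911.9 and 747.0 in Stag2-/- siGLO and 803.6, 791.0 and 708.4 in Stag2-/- siStag1 cells. All 6 Stag2-/- libraries were below all 9 others, while the 3 groups with Stag2 overlapped. Sdc4 fell by 1.21 log2 units in Stag2-/- siGLO cells (SE 0.13, adjusted p = 1.96e-05), a 2.31-fold difference. In Stag2-/- siStag1 cells it fell by 1.32 (SE 0.13, adjusted p = 2.20e-06), or 2.49-fold. Both differences were called with each replicate left out in turn. The change between those Stag2-/- groups was -0.11 with a 95% interval of -0.37 to 0.16, and Stag1-/- siGLO and wild-type siStag1 cells gave -0.07 and -0.04, neither called. The 8 primitive endoderm markers and 5 and 8 of the 10 ESC markers also fell in the Stag2-/- groups, and their part in the Sdc4 values was not tested.

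Sdc4 lies on the minus strand of chromosome 2, at 164424247 to 164443887 of mm10. The 250 bases before its RefSeq start (GRCm38.p6) are printed here because Sdc4 was the member that fell most. RefSeq places this start inside the GENCODE span given above, so the window lies within that span. Capitals in this and the other promoters mark the GC box GGGCGG and the TATA box TATAAA, each searched on both strands.
Sdc4 promoter, chr2:164443189-164443438, minus strand: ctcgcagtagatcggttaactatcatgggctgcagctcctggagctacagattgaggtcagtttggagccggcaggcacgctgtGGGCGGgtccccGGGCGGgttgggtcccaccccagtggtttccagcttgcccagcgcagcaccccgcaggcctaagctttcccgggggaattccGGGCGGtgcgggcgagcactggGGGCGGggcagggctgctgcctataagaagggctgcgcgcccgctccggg
It held 4 GC boxes, no TATA box and 19 CG dinucleotides. Of 32851 RefSeq promoters of the same length, 32.7% held a GC box and 12.4% a TATA box, and the median had 6 CG dinucleotides.

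Sdc3, the syndecan best known from nervous tissue, was higher in the 3 knockout groups. Its counts were 134.4, 126.8 and 144.9 in wild-type siGLO, 302.5, 264.2 and 234.6 in Stag1-/- siGLO, 220.7, 221.5 and 232.9 in Stag2-/- siGLO and 284.3, 208.6 and 307.8 in Stag2-/- siStag1 cells. All 9 knockout libraries were above all wild-type libraries. The rise was 0.98 log2 units in Stag1-/- siGLO (SE 0.16, adjusted p = 0.00053), 0.73 in Stag2-/- siGLO (SE 0.16, adjusted p = 0.0041) and 0.98 in Stag2-/- siStag1 cells (SE 0.16, adjusted p = 0.00016). In wild-type siStag1 cells, by contrast, the counts of 94.2, 101.9 and 114.9 all lay below wild-type siGLO, at -0.38 log2 units (SE 0.16), and this was not called (adjusted p = 0.71). The difference between the responses to siStag1 in Stag2-/- and in wild-type cells was 0.63 log2 units (95% interval 0.19 to 1.07) and was not called either (adjusted p = 0.62).

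Sdc3 lies on chromosome 4 at 130792537 to 130826319, plus strand. Its promoter is shown beside that of Sdc4 as a syndecan that rose in all 3 knockout groups.
Sdc3 promoter, chr4:130792287-130792536, plus strand: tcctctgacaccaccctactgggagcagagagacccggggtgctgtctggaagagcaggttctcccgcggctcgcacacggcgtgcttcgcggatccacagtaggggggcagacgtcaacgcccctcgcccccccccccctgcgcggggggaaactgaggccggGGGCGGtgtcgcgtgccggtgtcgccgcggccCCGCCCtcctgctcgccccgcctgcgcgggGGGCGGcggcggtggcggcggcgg
It held 3 GC boxes, no TATA box and 32 CG dinucleotides. An antisense gene, Gm26716, which the tables do not list, overlaps 415 bp of the 5989 bp of Sdc3 exons, and how strand was treated in counting is not given in the sources used here.

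Sdc1 and Sdc2 were higher in both Stag2-/- groups than in wild-type siGLO cells. Sdc2, a syndecan of mesenchymal cells, had counts of 237.0, 180.6 and 204.8 in wild-type siGLO, 280.9, 324.8 and 321.4 in Stag2-/- siGLO and 253.8, 378.9 and 423.9 in Stag2-/- siStag1 cells. Both Stag2-/- groups lay above wild type with no overlap. It rose by 0.57 log2 units in Stag2-/- siGLO (SE 0.17, adjusted p = 0.023) and by 0.76 in Stag2-/- siStag1 cells (SE 0.17, adjusted p = 0.0020). Without wild-type siGLO replicate 2 the first of these was 0.48 and was not called (adjusted p = 0.11, in a range of 0.0026 to 0.11 over all alternatives). Sdc1 is the main syndecan of epithelia. Its counts were 1107, 1165 and 1132 in wild-type siGLO, 1170, 1424 and 1333 in Stag2-/- siGLO and 1513, 1416 and 1389 in Stag2-/- siStag1 cells, above wild type in every library. The rise in Stag2-/- siStag1 cells was 0.34 log2 units (SE 0.08, adjusted p = 0.0048). That in Stag2-/- siGLO cells was 0.21 (SE 0.08, adjusted p = 0.097), and it was called only without Stag2-/- siGLO replicate 1 among the 6 fits that left out a library, which gave 0.14 to 0.28 and an adjusted p between 0.034 and 0.33. The call also ended with no filter on low counts (adjusted p = 0.15), with at least 10 counts in every library (0.1002) and in a fit of only the libraries compared (0.18), in a range of 0.026 to 0.33 over all alternatives. Neither Sdc1 nor Sdc2 was called in Stag1-/- siGLO cells, at -0.14 and -0.15, or in wild-type siStag1 cells, at 0.19 and -0.03. The Sdc1 counts of 1347, 1273 and 1264 with siStag1 in wild-type cells nevertheless all lay above wild-type siGLO, and Stag2-/- siStag1 cells did not differ by call from these (0.15, SE 0.08, adjusted p = 0.19).

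As a share of the summed syndecan counts, Sdc4 made up 56.1% in wild-type siGLO and 54.9% in Stag1-/- siGLO cells but 31.0% in Stag2-/- siGLO and 27.2% in Stag2-/- siStag1 cells (means, n = 3). Sdc1 went from 33.6% in wild-type siGLO to 49.0% in Stag2-/- siGLO and 50.9% in Stag2-/- siStag1 cells and was the most counted syndecan in both. Sdc2 went from 6.21% to 11.6% and 12.5%, and Sdc3 from 4.02% to 8.46% and 9.44%. The summed counts were 3389 ± 321 in wild-type siGLO, 2671 ± 196 in Stag2-/- siGLO and 2826 ± 30.1 in Stag2-/- siStag1 cells (SD, n = 3). These shares are of counts and not of molecules, since the genes differ in length.

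**Figure D3:**
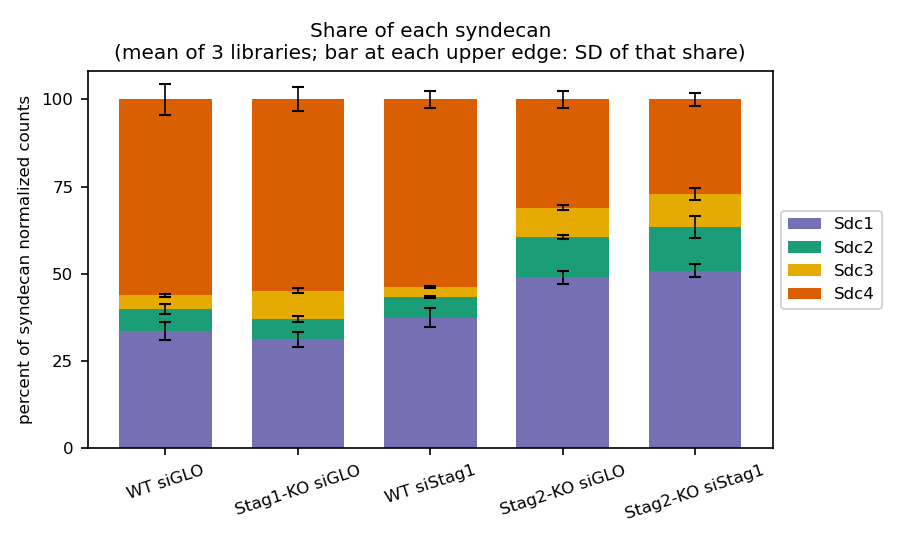
Mean share (percent) of the summed normalized syndecan counts taken by each of the 4 syndecans in each group, stacked, with bars for the SD over 3 libraries. Sdc4 takes the largest share in the wild-type and Stag1-/- groups and Sdc1 in both Stag2-/- groups.

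The glypicans changed less evenly. Gpc4, a glypican of pluripotent and neural progenitor cells, fell only in Stag2-/- siStag1 cells among the 4 comparisons with wild type. Its counts were 1101, 1118 and 976.5 in wild-type siGLO, 870.0, 856.4 and 807.0 in wild-type siStag1, 770.8, 1377 and 1179 in Stag2-/- siGLO and 583.3, 710.0 and 505.6 in Stag2-/- siStag1 cells. The Stag2-/- siStag1 libraries were below all 12 others. Gpc4 fell by 0.83 log2 units from wild-type siGLO (SE 0.16, adjusted p = 0.00094). It was -0.34 in wild-type siStag1 cells (SE 0.16, adjusted p = 0.80), with all replicates below wild-type siGLO, and -0.01 and 0.06 in Stag1-/- siGLO and Stag2-/- siGLO cells. The response to siStag1 was lower by 0.55 log2 units in Stag2-/- than in wild-type cells (SE 0.23), and this difference was not called (adjusted p = 0.73).

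Gpc3, a glypican that restrains Hedgehog signalling and whose gene neighbours Gpc4, was not called in any comparison with wild type. Its counts were 1352, 1575 and 1525 in wild-type siGLO, 1171, 1296 and 1254 in Stag1-/- siGLO, 917.6, 2696 and 2301 in Stag2-/- siGLO and 917.7, 1687 and 1623 in Stag2-/- siStag1 cells. Replicate 1 was low in both Stag2-/- groups, and the other Stag2-/- siGLO replicates were above every wild-type library. Against wild-type siGLO, Gpc3 in Stag2-/- siGLO cells was 0.41 log2 units (SE 0.27, adjusted p = 0.31) and, without Stag2-/- siGLO replicate 1, 0.75 (adjusted p = 0.0063, in a range of 2.46e-05 to 0.82 over all alternatives).

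Hs6st2, a 6-O-sulfotransferase, was the gene of the set with the largest fold changes and was called higher in each of the 4 comparisons with wild type. Its counts were 89.6, 81.2 and 62.8 in wild-type siGLO, 202.3, 256.5 and 243.6 in Stag1-/- siGLO, 174.5, 174.4 and 147.7 in wild-type siStag1, 359.0, 408.6 and 232.9 in Stag2-/- siGLO and 494.8, 437.0 and 366.3 in Stag2-/- siStag1 cells. Every library of the other groups was above all 3 wild-type siGLO libraries. The rise was 1.59 log2 units in Stag1-/- siGLO (SE 0.21, adjusted p = 9.38e-05), 2.10 in Stag2-/- siGLO (SE 0.21, adjusted p = 6.93e-06) and 2.47 in Stag2-/- siStag1 cells (SE 0.21, adjusted p = 2.69e-07). These are 3.00-fold, 4.28-fold and 5.55-fold. In wild-type siStag1 cells it was 1.09 (SE 0.21, adjusted p = 0.054). That call was lost when any 1 of the 6 libraries was left out, whether wild-type siGLO replicate 1, 2 or 3 or wild-type siStag1 replicate 1, 2 or 3, at 0.95 to 1.20 log2 units, and the adjusted p ran from 0.00061 to 0.27 over all alternatives. Only 8 of the tested genes, or 0.0551%, rose in all 4 comparisons, which share their wild-type libraries. Hs6st2 was called with them, and the other 7 were Cacnb3, Foxi3, Gja1, Lrrk2, Nsmaf, Prickle1 and Sox11.

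Hs6st2 lies on the X chromosome at 51387212 to 51681856, minus strand. RefSeq places 2 starts for it, both inside that GENCODE span, and both windows are shown because the counts do not separate them.
Hs6st2 promoter, outer start, chrX:51681603-51681852, minus strand: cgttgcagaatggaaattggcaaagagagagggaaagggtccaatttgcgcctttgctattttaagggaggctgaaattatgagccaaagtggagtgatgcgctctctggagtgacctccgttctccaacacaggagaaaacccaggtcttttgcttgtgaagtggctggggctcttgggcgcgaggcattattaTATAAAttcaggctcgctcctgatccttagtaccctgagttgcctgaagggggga
Hs6st2 promoter, inner start, chrX:51680478-51680727, minus strand: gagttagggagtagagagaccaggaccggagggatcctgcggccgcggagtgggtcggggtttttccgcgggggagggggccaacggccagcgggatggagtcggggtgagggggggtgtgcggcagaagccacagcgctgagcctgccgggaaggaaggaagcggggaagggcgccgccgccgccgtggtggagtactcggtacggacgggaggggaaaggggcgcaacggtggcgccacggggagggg
The outer window held 1 TATA box, no GC box and 7 CG dinucleotides, with 50% G or C. The inner window held neither motif and 26 CG dinucleotides, with 72% G or C.

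Hs6st1, the more abundant 6-O-sulfotransferase, rose only in Stag1-/- siGLO cells among the 4 comparisons with wild type. Its counts were 1652, 1616 and 1815 in wild-type siGLO and 2692, 2039 and 2132 in Stag1-/- siGLO cells, which did not overlap. The difference was 0.43 log2 units (SE 0.11, adjusted p = 0.017). The other 3 groups ranged from 1538 to 2114, at -0.04 in Stag2-/- siGLO, -0.01 in wild-type siStag1 and 0.14 in Stag2-/- siStag1 cells, none called. An antisense gene that the tables do not list, Gm37335, overlaps 447 bp of the 5542 bp of Hs6st1 exons.

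Ndst1, the N-deacetylase and N-sulfotransferase, rose only in Stag2-/- siStag1 cells, where it had counts of 780.0, 791.0 and 1016 beside 627.0, 704.2 and 670.3 in wild-type siGLO cells. The groups did not overlap, and the rise was 0.37 log2 units (SE 0.11, adjusted p = 0.013). Without Stag2-/- siStag1 replicate 3 it was 0.24 and still called. In the other groups it was 0.15, 0.10 and -0.07 for Stag1-/- siGLO, Stag2-/- siGLO and wild-type siStag1, none called. Ext1, the chain polymerase, was not called in any comparison. Its counts ran from 967.8 to 1278 in wild-type siGLO cells and from 943.6 to 1124 in Stag2-/- siStag1 cells, which overlapped, at -0.18 log2 units (adjusted p = 0.27). Without wild-type siGLO replicate 3, whose count was the lowest of its group, it was -0.29 and was called.

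The knockout lines were then compared with each other. Relative to Stag2-/- siGLO, Stag1-/- siGLO cells held more of 2 of the 10 genes and less of 3, where 25.7% of all genes were called, 12.7% higher and 12.9% lower. Sdc4 was higher by 1.13 log2 units (SE 0.13, adjusted p = 3.84e-05) and Hs6st1 by 0.47 (SE 0.11, adjusted p = 0.0092). Sdc2 was lower, at -0.73 (SE 0.17, adjusted p = 0.0068), as was Sdc1, at -0.35 (SE 0.09, adjusted p = 0.0099). Hs6st2 was -0.51 (SE 0.19, adjusted p = 0.075) with overlapping replicates, and of 6 fits that left out a library it was called only without Stag2-/- siGLO replicate 3. In a fit of only the libraries compared it was -0.51 and not called (adjusted p = 0.15, in a range of 0.013 to 0.29 over all alternatives). Gpc3, at -0.67 (adjusted p = 0.10), was not called, but with the replicate block it was -0.59 and called (adjusted p = 0.045), and without Stag2-/- siGLO replicate 1 it was -1.01 and called. Its adjusted p ran from 1.48e-06 to 0.41 over all alternatives. Sdc3, which rose in both lines, differed by 0.25 between them, with a 95% interval of -0.05 to 0.55 and no call.

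Depleting STAG1 in Stag2-/- cells changed 1 of the 10 genes, where 6.37% of all genes were called, 2.98% rising and 3.39% falling. Gpc4 fell by 0.89 log2 units (SE 0.16, adjusted p = 0.0052), called with each library left out. In a fit of only those 6 libraries it was -0.90 and not called (adjusted p = 0.14, the highest over all alternatives). With the replicate block 2 of the 10 were called, Gpc4 and Ext1, the latter at -0.26 (adjusted p = 0.072, in a range of 0.072 to 0.60), and the calls over all genes rose from 924 to 2049. Without Stag2-/- siGLO replicate 1, Gpc3 was -0.83 and called (adjusted p = 0.015). Ndst1 was 0.27, with no overlap, and was called only without Stag2-/- siStag1 replicate 1, at 0.34.

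Against wild-type siStag1 cells, Stag2-/- siStag1 cells held more of 4 of the 10 genes and less of 2, where 37.5% of all genes were called, 19.4% higher and 18.1% lower. Sdc3 was higher by 1.36 log2 units (SE 0.16, adjusted p = 1.44e-05), Hs6st2 by 1.39 (SE 0.19, adjusted p = 7.28e-05), Sdc2 by 0.79 (SE 0.17, adjusted p = 0.0021) and Ndst1 by 0.45 (SE 0.11, adjusted p = 0.0053). Sdc4 fell by 1.28 (SE 0.13, adjusted p = 5.04e-06) and Gpc4 by 0.49 (SE 0.16, adjusted p = 0.031), the last not called without Stag2-/- siStag1 replicate 3, at -0.38. The siStag1 response did not differ by call between Stag2-/- and wild-type cells for any of the 10 genes with edgeR, where 0.159% of all genes were called, and DESeq2 also called none of the 10. An unadjusted p below 0.05 was reached by 4 of the 10, namely Sdc3, Gpc4, Hs6st2 and Ndst1, and by 5.80% of all genes. For Hs6st2 the difference was -0.71 log2 units with a 95% interval of -1.26 to -0.16 (adjusted p = 0.69).

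Hs6st2, Gpc4 and Gpc3 lie within 1 stretch of the X chromosome, in that order, and their surroundings were described next. Gpc4 spans 52053021 to 52165252 and Gpc3 52272426 to 52613950, both on the minus strand like Hs6st2. The stretch with 1 Mb to either side held 16 tested genes, the 3 members included. In Stag2-/- siGLO cells 7 of the 16 rose and none fell, namely 2610018G03Rik, Hs6st2, Usp26, Mir363, Kis2, Ccdc160 and Cxx1c, of which only Hs6st2 is a heparan sulfate gene. Mir363 and Kis2 start close together, and their reads may not be told apart. In Stag2-/- siStag1 cells 9 rose and 2 fell. In Stag1-/- siGLO cells 2 rose and 2 fell, and in wild-type siStag1 cells Hs6st2 alone rose. Between the knockout lines 9 were lower in Stag1-/- siGLO and none higher. Over all tested genes, 13.9% rose and 14.4% fell in Stag2-/- siGLO, 22.6% and 21.3% in Stag2-/- siStag1, 10.1% and 9.93% in Stag1-/- siGLO and 0.103% and 0.145% in wild-type siStag1 cells. Between the knockout lines 12.7% were higher and 12.9% lower in Stag1-/- siGLO cells.

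Usp26, a deubiquitinase gene 119377 bp from Hs6st2 and adjacent to it, had counts of 131.6, 81.2 and 79.2 in wild-type siGLO, 764.5, 820.5 and 735.4 in Stag2-/- siGLO and 960.0, 1191 and 1184 in Stag2-/- siStag1 cells. It rose by 2.98 log2 units (SE 0.18, adjusted p = 2.15e-07) and 3.51 (SE 0.18, adjusted p = 2.29e-09), more than Hs6st2 in the same libraries. In Stag1-/- siGLO cells, where Hs6st2 was 1.59, Usp26 was 0.67 (SE 0.18, adjusted p = 0.023), and without wild-type siGLO replicate 2 it was 0.56 and not called (adjusted p = 0.11, in a range of 0.0023 to 0.11 over the fits without 1 library). On the other side of Hs6st2, Mbnl3, at 475324 bp, was -0.09 in Stag2-/- siGLO cells and not called.

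**Figure D4:**
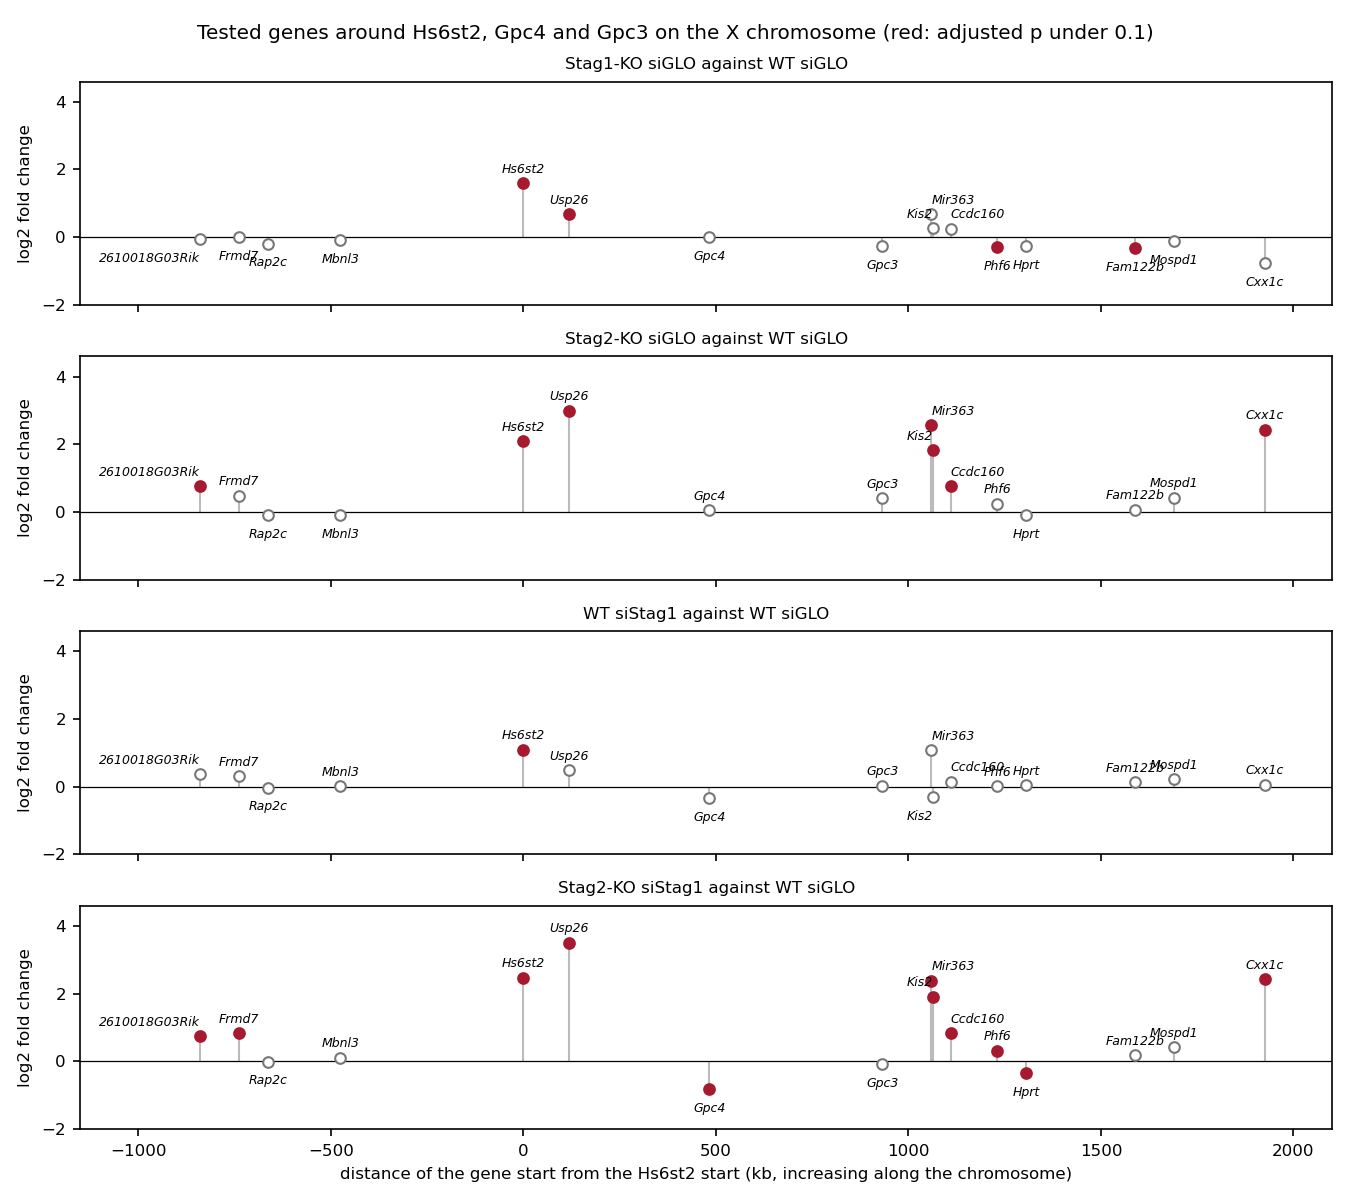
Log2 fold change against wild-type siGLO (vertical axes) of the 16 tested genes around Hs6st2, Gpc4 and Gpc3, by the distance of the gene start from that of Hs6st2 (kb), with filled red points for called genes. Usp26, beside Hs6st2, is the highest point in both Stag2-/- groups.

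The neighbours of other members were looked at in the same way. Laptm5, a lysosomal membrane protein gene 120588 bp from Sdc3, was lower in both Stag2-/- groups, where Sdc3 was higher. Its counts were 1092, 1420 and 1224 in wild-type siGLO, 994.6, 510.8 and 688.0 in Stag2-/- siGLO and 384.6, 232.5 and 253.3 in Stag2-/- siStag1 cells. It fell by 0.77 log2 units in Stag2-/- siGLO (SE 0.21, adjusted p = 0.017) and by 2.10 in Stag2-/- siStag1 cells (SE 0.22, adjusted p = 2.87e-06), and between these groups by 1.33 (SE 0.22, adjusted p = 0.0023), a step in which Sdc3 was not called. In Stag1-/- siGLO cells Laptm5 was -0.49 and not called (adjusted p = 0.14), but it was called with the replicate block at -0.51 (adjusted p = 0.051) and in a fit of only the libraries compared at -0.49 (adjusted p = 0.019), in a range of 0.019 to 0.37 over all alternatives. In wild-type siStag1 cells it was -0.29 and not called, with Sdc3 also below wild-type siGLO. Sema5a, 675913 bp from Sdc2, rose with it. The rise was 0.91 in Stag2-/- siGLO (adjusted p = 0.0044) and 1.40 in Stag2-/- siStag1 cells (adjusted p = 4.81e-05). Sema5a also rose by 0.56 in Stag1-/- siGLO cells (adjusted p = 0.073), where Sdc2 was not called. Laptm4a, 150341 bp from Sdc1, rose by 0.23 (adjusted p = 0.051) and 0.35 (adjusted p = 0.0029) in the Stag2-/- groups. Sys1, 13077 bp from Sdc4, was 0.23 in Stag2-/- siGLO cells and not called where Sdc4 fell. Matn4, on the other side of Sdc4, was -0.98 there and not called (adjusted p = 0.39). Rps14, which overlaps Ndst1 on the opposite strand without sharing exons, was -0.09 in Stag2-/- siStag1 cells and not called. Cd74, 55198 bp from Ndst1, fell by 0.99 there (adjusted p = 0.073), where Ndst1 rose. Pum2 beside Sdc1, Uggt1 beside Hs6st1 and Med30 beside Ext1 were not called in any comparison with wild-type siGLO. Of the 38 tested genes within 1 Mb of Sdc4, 6 rose and 3 fell in Stag2-/- siGLO cells, and of the 25 around Ndst1 none rose and 11 fell, where 13.9% of all genes rose and 14.4% fell. In Stag2-/- siStag1 cells, the group in which Ndst1 rose, 2 rose and 13 fell around Ndst1, 8 rose and 7 fell around Sdc4, 6 rose and 1 fell of 10 around Sdc1, and 4 rose and 5 fell of 14 around Sdc3, where 22.6% of all genes rose and 21.3% fell. In the same comparison 2 rose and none fell of 3 around Sdc2, 4 rose and 3 fell of 15 around Hs6st1, and none of 2 was called around Ext1.

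The rest of the pathway was counted over 6 lists, to be read beside 10.1% of all tested genes rising and 9.93% falling in Stag1-/- siGLO, 13.9% and 14.4% in Stag2-/- siGLO and 22.6% and 21.3% in Stag2-/- siStag1 cells. These shares of all genes are of the size of many of the counts, and nothing is read from them about a list. Of 9 tested other core proteins, 3 rose and 2 fell in Stag1-/- siGLO, 1 rose and 2 fell in Stag2-/- siGLO and 1 rose and 2 fell in Stag2-/- siStag1 cells. Gpc1, another glypican, rose by 0.91, 0.82 and 1.24 log2 units in these groups. In Stag2-/- siGLO replicate 1 its count was 854.2, within the wild-type siGLO range of 739.0 to 866.4, beside 1809 and 1626 in the other replicates. Tgfbr3, the betaglycan coreceptor of TGF-beta ligands, fell by 1.49, 1.41 and 1.35. Hspg2, the basement membrane proteoglycan perlecan, fell by 0.66 in Stag2-/- siGLO and 0.79 in Stag2-/- siStag1 cells, and Col18a1, which encodes a basement membrane collagen with heparan sulfate chains, rose by 0.83 in Stag1-/- siGLO cells. Of 14 tested other enzymes that polymerise or modify the chain, 1 rose and 2 fell in Stag1-/- siGLO, 2 rose and 4 fell in Stag2-/- siGLO and 4 rose and 4 fell in Stag2-/- siStag1 cells. Hs3st1, a 3-O-sulfotransferase, fell by 3.40, 2.26 and 2.27 in the groups in which primitive endoderm markers were also low, whose part was not tested. Extl1, an exostosin-like glycosyltransferase, fell by 1.01 in Stag2-/- siGLO and 1.64 in Stag2-/- siStag1 cells. Sulf1, an extracellular sulfatase that takes off 6-O-sulfate, rose by 0.96 and 1.16 in the same groups. Its count in Stag2-/- siGLO replicate 1 was 976.7, below the 988.1 of wild-type siGLO replicate 1, while the other replicates had 1807 and 1692. Extl1 was higher by 1.01 and Sulf1 was -0.92 in Stag1-/- siGLO relative to Stag2-/- siGLO cells, both called.

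Of 14 linkage and sugar supply enzymes, 1 rose and 3 fell in Stag1-/- siGLO, none rose and 3 fell in Stag2-/- siGLO and none rose and 4 fell in Stag2-/- siStag1 cells. Slc35b2, which carries the sulfate donor into the Golgi, fell by 0.54 in Stag1-/- siGLO cells, and Xylt1, a xylosyltransferase that starts the chain, by 1.05 in Stag2-/- siGLO cells. Xylt1 counts were 38.01, 46.24 and 40.04 in Stag2-/- siGLO cells. In Stag2-/- siStag1 cells they were 62.95, 69.55 and 88.81, overlapping the 82.11, 84.21 and 91.76 of wild-type siGLO. Of 9 lysosomal breakdown enzymes, Gusb alone was called in Stag1-/- siGLO, Gusb and Hgsnat in Stag2-/- siGLO, and 3 rose and 1 fell in Stag2-/- siStag1 cells. Of 14 tested chondroitin and dermatan sulfate enzymes, 1 rose and 1 fell in Stag1-/- siGLO, 3 rose and 1 fell in Stag2-/- siGLO and 7 rose and 2 fell in Stag2-/- siStag1 cells. Chpf2, a chondroitin polymerising factor, rose by 0.50 in Stag2-/- siGLO and 0.90 in Stag2-/- siStag1 cells, Chst15, a chondroitin sulfotransferase, by 1.73 in the latter, and Chsy1, a chondroitin synthase, by 0.41 in Stag1-/- siGLO and 0.72 in Stag2-/- siStag1 cells. Chsy1 also rose by 0.49 with siStag1 in Stag2-/- cells. Of 10 partners of syndecans and glypicans, 2 rose and 1 fell in each single knockout group and 3 rose and 1 fell in Stag2-/- siStag1 cells. Mmp14, a membrane protease that sheds syndecans, rose by 0.79, 0.56 and 0.85 in the 3 groups, and Tiam1, a Rac activator, by 0.76, 0.43 and 0.53, while Adam10, another sheddase, fell by 0.64 in Stag1-/- siGLO cells. No gene of the 6 lists was called in wild-type siStag1 cells with edgeR. Summed over the 8 comparisons, the calls among linkage and sugar supply enzymes went from 18 to 11 without wild-type siGLO replicate 3, and those among lysosomal enzymes from 10 to 6 without wild-type siGLO replicate 2 or 3.

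**Figure D5:**
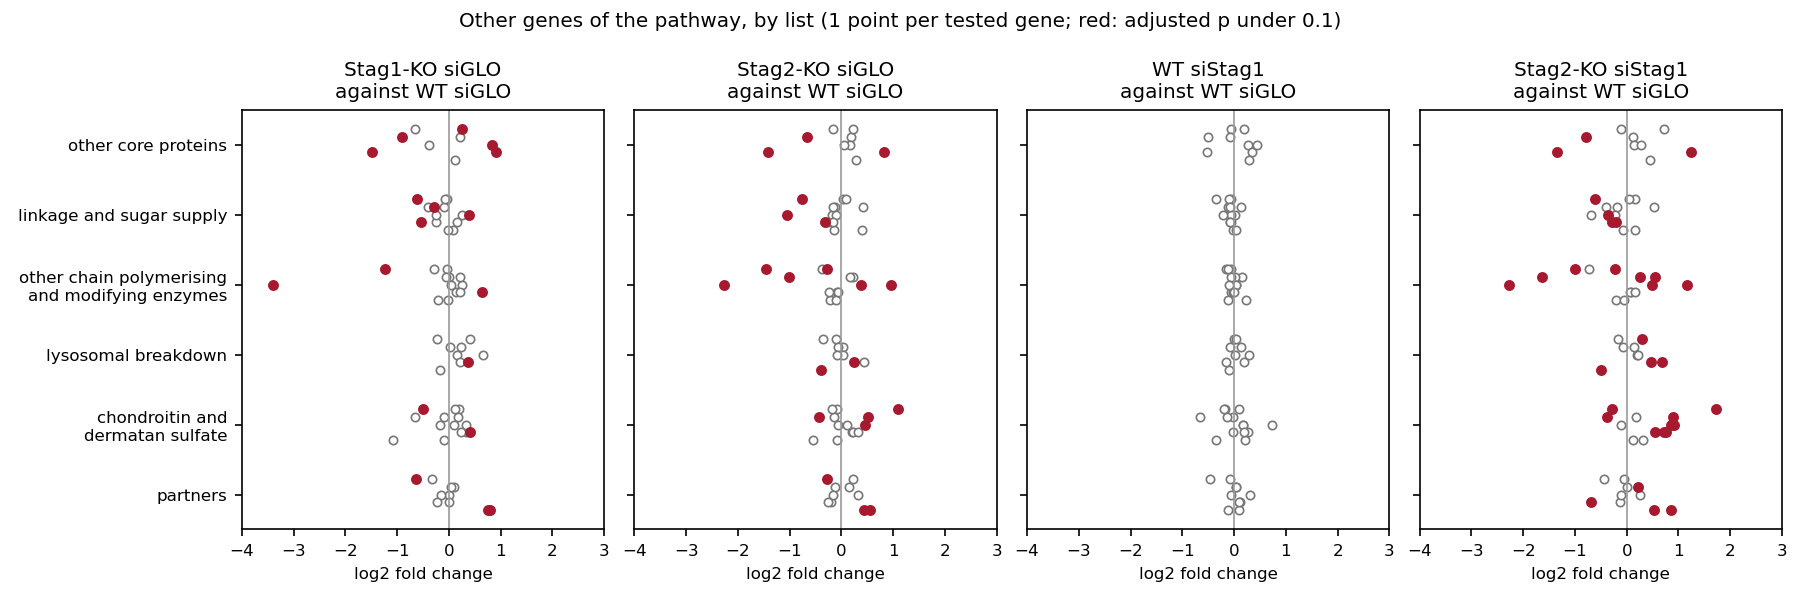
Log2 fold change against wild-type siGLO (horizontal axes) of each tested gene of the 6 pathway lists, with 1 point per gene and filled red points for an adjusted p below 0.1 in edgeR. The chondroitin and dermatan sulfate list has 7 of 14 genes rising in Stag2-/- siStag1 cells, where 22.6% of all tested genes rose, and no point is filled in wild-type siStag1 cells.

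Across the 15 libraries, log2 counts of the 10 genes varied together in a few pairs, picked here from all pairs. They are given as a description, since the libraries share groups and same-numbered samples deviated together. Sdc2 and Sdc4 had a Pearson r of -0.90 over libraries and -0.40 after subtracting group means, and Sdc4 and Hs6st2 had -0.76 and 0.12. Sdc3 and Ndst1 had 0.76 and 0.50. Gpc3 and Gpc4 had 0.43 over libraries and 0.73 after subtracting group means. Both were lowest of their group in Stag2-/- siGLO replicate 1, at 917.6 and 770.8, and r was not computed without that library. Hs6st1 and Hs6st2 had 0.08 over libraries and -0.78 within groups.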

How the data were processed

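RNA-seq was done on polyadenylated RNA of 15 samples (5 groups, 3 replicates each). The authors sequenced 150 bp paired-end reads, aligned them with STAR (mm10 assembly) and deposited, for each library, a table of raw counts by gene. The counting tool, its annotation and its strand setting are not given in the sources used here. Of the counts in each deposited file, 19.8 to 23.4% stood in 4 summary lines that name no gene, and these were left out. Replicates of a group differed by more than sampling noise (chi-square per degree of freedom at least 4.70). A count of 0 allows up to 3 counts, or 0.157 to 0.200 CPM, for counting error only.

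Groups were taken from the sample labels. The members and lists were chosen with earlier results of these data known, and no p was adjusted over a list. Genes were kept by filterByExpr (minimum count 10, minimum total 15), scaled by TMM and fitted with edgeR 4.0.16 in R 4.3.3, using a quasi-likelihood model with 1 coefficient per group over all 15 libraries. Tests were two-sided, p-values were adjusted by Benjamini-Hochberg over 14508 genes, and the threshold was 0.1. The SE is the log2 fold change divided by the square root of F, and intervals are 1.96 SE to either side. These 95% intervals are approximate and narrower than the quasi-likelihood test allows. For Hs6st2 in Stag2-/- siStag1 against Stag2-/- siGLO cells the interval was 0.01 to 0.74, while that test gave an unadjusted p of 0.062. The procedure was tested on simulated data. Named genes were the members, Stag1, Stag2, Laptm5, genes adjacent to a member, and, from each pathway list and comparison, at most the 3 called genes with the largest change and a mean of at least 50 normalized counts, or any gene of a list with 5 or fewer calls. The genes that rose in the X chromosome stretch and the 7 genes that rose with Hs6st2 in every comparison with wild type were named after their values were seen. Figures were drawn with matplotlib 3.10.9.

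Same-numbered samples deviated together from their group means, with a mean r of 0.308 over 30 pairs beside -0.150 over 60 pairs of other numbers (11527 genes). Every pair was above 0.1 for the knockout lines against wild-type siGLO and each other and for siStag1 within either line, so the blocked value is given beside those results where it changes a call. Alternatives were DESeq2 1.42.0, DESeq2 size factors or library size in place of TMM, no filter, at least 10 counts in every library, an adjusted p below 0.05, only the libraries compared, the block, each library left out, and leaving out replicate 1 of both Stag2-/- groups, which was chosen after seeing the data. Positions and exon lengths are those of GENCODE M21 (mm10), which placed 22980 of 23412 genes, and promoters are RefSeq's (GRCm38.p6), which held 7 of the 10 members and none for Sdc2, Ext1 and Ndst1.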

Additional observations from a re-analysis of the deposited data

Results flagged for a closer look

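A total of 5 of the 10 genes differed between the effects of the Stag1 and the Stag2 knockout when the difference itself was tested with edgeR, which is the comparison of Stag1-/- siGLO with Stag2-/- siGLO cells, where 25.7% of all genes were called. The effect of the Stag1 knockout minus that of the Stag2 knockout was 1.13 log2 units for Sdc4, 0.47 for Hs6st1, -0.35 for Sdc1, -0.73 for Sdc2 and -0.51 for Hs6st2. Sdc4, Sdc1 and Sdc2 were called against wild-type siGLO in Stag2-/- siGLO and not in Stag1-/- siGLO cells, Hs6st1 the reverse, and Hs6st2 rose in both. The difference for Hs6st2 was called without 1 of the 6 libraries compared and missed the threshold without each of the other 5. Each knockout was 1 clone, so clone and genotype cannot be told apart.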

How the results depend on the processing

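Of 1008 values recomputed under other settings 989 kept their direction and side of the threshold, and of 866 recomputed with libraries left out 802 did. With the replicate block 2 of the 10 genes were called for siStag1 in Stag2-/- cells in place of 1, and calls among syndecan and glypican partners summed to 26 in place of 17. The block raised the calls over all genes in every comparison, from 924 to 2049 for siStag1 in Stag2-/- cells and from 3722 to 5416 between the knockout lines. The rise among partners is therefore not particular to that list. Between Stag2-/- siStag1 and each wild-type group, and for the difference of the siStag1 responses, same-numbered samples did not all deviate together (lowest r 0.0447 and -0.0949), and there the block gave 7, 6 and 0 members. Over all genes the block called 7792 against wild-type siGLO and 6893 against wild-type siStag1 cells, in place of 6364 and 5441. Beyond what is printed with the results, the block changed only the direction of Ext1 in wild-type siStag1 cells among the members. Over all genes, the wild-type siStag1 comparison gave 36 calls, 133 with DESeq2 and 236 with the block, and the difference of the siStag1 responses gave 23, 102 and 138.

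At an adjusted p below 0.05 no member was called in wild-type siStag1 cells, and calls among linkage enzymes, summed over the 8 comparisons, numbered 10 in place of 18. In a fit of only the libraries compared, 0 members were called for siStag1 in Stag2-/- cells. Without replicate 1 of both Stag2-/- groups, a choice made after seeing the data, 2 were called there (Gpc3 and Gpc4) and 1 for the difference of the siStag1 responses (Gpc3, -0.63). The causes were not tested. With 1 library left out, called members numbered 3 to 3 in Stag1-/- siGLO, 3 to 6 in Stag2-/- siGLO, 0 to 0 in wild-type siStag1 and 7 to 8 in Stag2-/- siStag1 cells against wild-type siGLO. They numbered 1 to 2 for siStag1 in Stag2-/- cells, 5 to 6 against wild-type siStag1 cells and 4 to 5 between the knockout lines. Calls summed over comparisons ran from 16 to 24 for core proteins, 11 to 18 for linkage, 26 to 32 for chain, 6 to 13 for lysosomal and 23 to 29 for chondroitin enzymes and 14 to 19 for partners.

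Directions turned only in values that were not called. Without replicate 1 of both Stag2-/- groups Gpc3 in Stag2-/- siStag1 cells was 0.16 against wild-type siGLO and 0.12 against wild-type siStag1, and Ext1 in Stag2-/- siGLO cells was -0.0021. Without the filter Gpc4 in Stag1-/- siGLO cells was 0.0095 and Hs6st1 and Ext1 in wild-type siStag1 cells were 0.0020 and 0.0052. Ext1 there was 0.0019 with library size alone, 0.0010 with at least 10 counts in every library and 0.0051 with the block. With 1 library left out, values in wild-type siStag1 cells ran from -0.12 to 0.075 for Sdc2, -0.17 to 0.038 for Sdc4, -0.030 to 0.089 for Gpc3, -0.042 to 0.045 for Hs6st1 and -0.12 to 0.073 for Ext1. In Stag1-/- siGLO cells they ran from -0.21 to 0.039 for Sdc4, -0.067 to 0.028 for Gpc4 and -0.010 to 0.19 for Ext1, and in Stag2-/- siGLO cells from -0.13 to 0.26 for Gpc4, -0.11 to 0.014 for Hs6st1 and -0.031 to 0.17 for Ext1. Gpc3 in Stag2-/- siStag1 cells ran from -0.22 to 0.16 against wild-type siGLO and from -0.26 to 0.12 against wild-type siStag1 cells. Between the knockout lines Gpc4 ran from -0.27 to 0.12 and Ext1 from -0.067 to 0.11. Hs6st2 and Sdc3 rest on the fewest counts of the members.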
